A study of Mus musculus with 7 samples.

Results

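HDAC1 takes acetyl groups off histone tails and works in corepressor complexes. Its binding was examined at 9 genes of the limb muscle lineage, Pax3, Pax7, Lbx1, Met, Myf5, Myod1, Myog, Mef2c and Des. A gene was given the peaks that overlapped its body with 10 kb added on each side (GENCODE M21, mm10), and the 9 genes stood among 21938 protein-coding genes treated alike. HDAC1 ChIP-seq, which sequences the DNA brought down with an antibody against the protein, was done on wild-type Swiss Webster limb buds at E11.5 (40 to 44 somites), with forelimbs and hindlimbs of 3 litters pooled in a sample. There were 4 HDAC1 ChIP samples and 3 inputs of chromatin without antibody, and no mutant or treatment was involved. The processed list used here holds 15347 peaks called from them together, ranked by row, and gives positions only. Here no peak therefore has a value in a single sample or a replicate error, the depth behind it is unknown from the list, and shares and counts are given below as descriptions without a test.

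Limb muscle does not arise from the limb bud itself. Its precursors leave the somites, migrate into the bud among the mesenchymal cells that form skeleton and connective tissue, and are a minor population there. Pax3, Lbx1 and Met, the receptor for HGF, act in the departure and migration of the precursors, and Pax7 marks progenitors that are kept for later growth. Myf5 and Myod1, transcription factors of the basic helix-loop-helix family that bind E-boxes, commit the cells to muscle. Myog, Mef2c and the intermediate filament gene Des belong to the differentiation that follows. In whole limb buds, a small number of bound cells and weak binding in many cells cannot be told apart.

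HDAC1 peaks were found at 5 of the 9 genes. They lay at 3 of 4 early precursor genes (Pax7, Lbx1 and Met), at 1 of 2 determination genes (Myod1) and at 1 of 3 differentiation genes (Mef2c). No peak was found at Pax3, Myf5, Myog or Des. Of all protein-coding genes, 53.8% (11800 of 21938) had a peak in a window of the same kind, so the count of 5 was close to what that background gives. The windows differ in length. Of the 5 genes with a body under 10 kb, 2 had a peak, beside 39.2% of all genes of that length. Of the 4 genes over 50 kb, 3 had one, beside 70.3% of all genes of that length, and 57.1% of the genes between these lengths had one. A gene without a peak is one without a peak past the authors' threshold, which does not show that HDAC1 was absent.

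**Figure D1:**
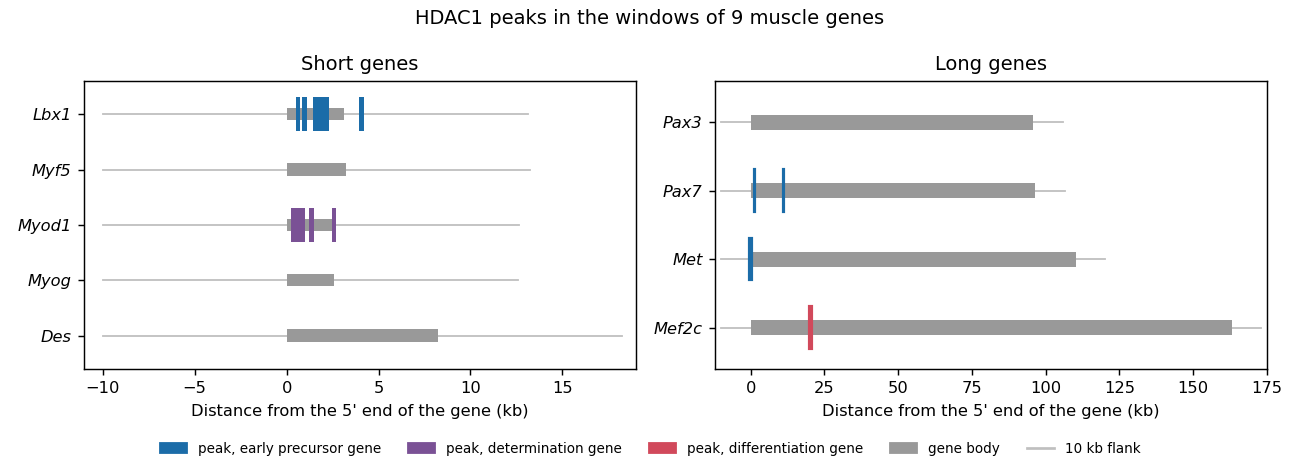
HDAC1 peaks by distance from the 5′ end of each gene in kb, in the direction of transcription, for genes under 10 kb (left) and over 50 kb (right). Coloured bars are peaks, to scale on the left and with an outline that widens them on the right; grey bars are gene bodies and thin lines the 10 kb flanks. The 4 Lbx1 and 3 Myod1 peaks sit within a few kb of each other, while Pax3, Myf5, Myog and Des have none.

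The sequences below are shown for the best-ranked peak of Lbx1 and of Myod1, the Pax7 peak nearest a start, and a stretch of the Mef2c peak outside UTRs, since these are places where HDAC1 was listed. The promoters of Myf5, Myog and Des stand beside them as the starts without a peak. They read 5′ to 3′ on the strand of the gene (GRCm38.p6, the mm10 assembly). Capitals mark E-boxes (CANNTG, which reads the same on both strands) and, in the Mef2c sequence, also a match to the MEF2 site, for which both strands read alike as well. Promoters are the 250 bases before the RefSeq start, and RefSeq promoters were matched for 6 of the 9 genes, all but Pax3, Lbx1 and Myod1.
Lbx1 peak, chr19:45234700-45234999, minus strand: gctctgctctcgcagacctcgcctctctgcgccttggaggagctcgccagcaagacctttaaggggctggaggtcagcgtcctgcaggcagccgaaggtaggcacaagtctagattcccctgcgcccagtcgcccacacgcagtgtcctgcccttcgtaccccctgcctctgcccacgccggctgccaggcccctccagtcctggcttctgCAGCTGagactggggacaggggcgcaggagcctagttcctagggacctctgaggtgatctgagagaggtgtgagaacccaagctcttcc
Myod1 peak, chr7:46377700-46377949, plus strand: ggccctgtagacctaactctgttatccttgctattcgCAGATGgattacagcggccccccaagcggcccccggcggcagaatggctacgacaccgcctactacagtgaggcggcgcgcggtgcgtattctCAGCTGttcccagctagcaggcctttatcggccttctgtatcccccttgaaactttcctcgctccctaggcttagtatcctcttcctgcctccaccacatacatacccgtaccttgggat
Pax7 peak, chr4:139831950-139832249, minus strand: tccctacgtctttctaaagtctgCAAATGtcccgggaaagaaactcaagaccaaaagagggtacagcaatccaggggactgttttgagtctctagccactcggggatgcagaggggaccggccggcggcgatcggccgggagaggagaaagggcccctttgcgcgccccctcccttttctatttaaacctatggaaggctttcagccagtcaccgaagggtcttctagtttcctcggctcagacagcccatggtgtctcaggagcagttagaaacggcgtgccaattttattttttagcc
Mef2c peak, intronic stretch, chr13:83523896-83524195, plus strand: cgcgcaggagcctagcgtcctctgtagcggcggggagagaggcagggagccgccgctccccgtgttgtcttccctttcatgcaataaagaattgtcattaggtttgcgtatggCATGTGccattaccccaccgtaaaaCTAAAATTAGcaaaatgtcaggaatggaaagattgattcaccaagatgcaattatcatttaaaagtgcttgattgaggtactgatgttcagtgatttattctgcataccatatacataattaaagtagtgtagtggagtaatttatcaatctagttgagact
Myf5 promoter, chr10:107486135-107486384, minus strand: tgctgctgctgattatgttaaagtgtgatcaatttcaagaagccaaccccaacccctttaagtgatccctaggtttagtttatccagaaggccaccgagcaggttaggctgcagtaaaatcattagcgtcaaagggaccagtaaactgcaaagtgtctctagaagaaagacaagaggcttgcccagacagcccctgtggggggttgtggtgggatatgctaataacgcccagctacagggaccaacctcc
Myog promoter, chr1:134289754-134290003, plus strand: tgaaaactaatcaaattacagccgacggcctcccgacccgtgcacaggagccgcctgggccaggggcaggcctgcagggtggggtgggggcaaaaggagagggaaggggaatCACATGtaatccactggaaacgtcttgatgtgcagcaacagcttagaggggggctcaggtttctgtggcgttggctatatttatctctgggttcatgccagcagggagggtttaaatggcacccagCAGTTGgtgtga
Des promoter, chr1:75360042-75360291, plus strand: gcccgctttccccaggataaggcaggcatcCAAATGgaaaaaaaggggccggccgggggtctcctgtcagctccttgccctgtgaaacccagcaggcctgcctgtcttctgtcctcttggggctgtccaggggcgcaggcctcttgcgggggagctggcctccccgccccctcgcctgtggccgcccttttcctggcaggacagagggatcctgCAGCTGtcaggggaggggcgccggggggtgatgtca

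Among the early precursor genes, Lbx1 had the most peaks. Lbx1 encodes a homeodomain transcription factor that muscle precursors need for their migration into the limb, and it lies on chromosome 19 from 45232684 to 45235812 (minus strand). In its window were 4 peaks, which together spanned 3.7 kb from 45231600 to 45235299 and covered 1650 bp, or 7.13% of the window. Of all protein-coding genes, 3.88% had a larger share of their window covered. That percentage was taken over genes of all lengths and was not matched for length, and the window of Lbx1 is short. The longest peak (45233500 to 45234399, 900 bp, row 10900) overlapped 521 bp of coding sequence and 237 bp of UTR. The best-ranked one, shown above (300 bp, row 7412), ran over 97 bp of coding sequence and 203 bp of intron. A 200 bp peak (45235100 to 45235299, row 14833) lay near the 5′ end of the gene, 513 bp inside the TSS, and a 250 bp peak (45231600 to 45231849, row 10017) lay 835 bp past its 3′ end. No Lbx1 peak covered the TSS itself, and none lay upstream of the gene within 10 kb.

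Met had a single peak of 1150 bp (chromosome 6, 17463250 to 17464399). At row 1553 it was in the first 10.1% of the list, the highest rank of the 11 peaks at these genes. The peak contained 3 of the 6 annotated coding TSSs of Met. It overlapped 550 bp upstream of the gene, 449 bp of UTR and 151 bp of intron. The other 3 Met TSSs lay 26842 bp or more from a peak. Of the 9 genes only Met had its 5′ end covered, and its peak was longer than 87.0% of all peaks.

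Pax7 had 2 short peaks, both wholly in introns near the 5′ end of a gene of 96467 bp (chromosome 4, 139737062 to 139833528, minus strand). The first (139831950 to 139832249, 300 bp, row 14291) lay 1279 bp inside the TSS of the principal transcript (139833528). It lay 758 bp inside that of another transcript (139833007), and counts as a promoter peak only through this second TSS. The RefSeq promoter of Pax7 (139832969 to 139833218) contains the second TSS and not the principal one. The other peak (139822200 to 139822399, 200 bp, row 13194) lay 11.2 kb into the gene. They stood at 93.1% and 86.0% of the way down the list, so the call at Pax7 rests on weakly ranked peaks.

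Pax3, the paralog of Pax7 and the gene that opens limb muscle formation, had no peak in its body of 95868 bp or within 10 kb of it (chromosome 1, 78101267 to 78197134, minus strand). A single peak lay within 100 kb. It was 400 bp long (78217000 to 78217399, row 9742), overlapped no annotated gene, and lay 19.9 kb upstream of Pax3, whose TSS was the nearest coding one. With 25 kb added on each side in place of 10 kb, Pax3 counted as a gene with a peak. Of all protein-coding genes, 59.2% had a peak closer to them than Pax3 did.

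Myod1 and Myf5, which both commit cells to muscle, differed. Myod1 (chromosome 7, 46376474 to 46379099) had 3 peaks that spanned 2.45 kb and covered 5.52% of its window. Of all genes, again not matched for length, 6.24% had a larger share covered. The first (46376700 to 46377499, 800 bp, row 8517) began 226 bp after the TSS and overlapped 600 bp of coding sequence. The next, shown above (250 bp, row 6563), overlapped 79 bp of coding sequence and 171 bp of intron. The last (46378950 to 46379149, 200 bp, row 14841) lay over 150 bp of 3′ UTR and ran 50 bp past the gene. All 3 were thus inside or at the end of the transcribed region, and none lay within 100 kb upstream, the side on which the distal enhancers of Myod1 are known. Within 25 kb there were 2 more peaks, both downstream at the potassium channel gene Kcnc1, the nearer one 17.2 kb from Myod1 and over a TSS of Kcnc1.

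Myf5 (chromosome 10, 107482908 to 107486134, minus strand) had no peak within 100 kb on either side. Its enhancers are known to be spread far upstream, past the neighbouring Myf6, another gene of the same factor family, which had none either. The nearest peak lay 210209 bp downstream, at row 11576, and covered a TSS of Lin7a. Of all protein-coding genes, 15.1% were farther from a peak. Among genes under 10 kb, 8.12% had 3 or more peaks in the window, as Lbx1 and Myod1 did, and among genes of all lengths 9.75% did.

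Of the differentiation genes, Mef2c alone had a peak. Mef2c encodes a transcription factor of the MADS-box family that acts with the myogenic factors and that is also used in heart, vessels and neurons. Its peak (chromosome 13, 83523800 to 83524849, 1050 bp, row 6501) lay 20.3 kb from the 5′ end of a gene of 163047 bp. There it contained 3 of the 23 annotated coding TSSs and reached to within 42 bp of another 5. The GC content of the window around the most upstream TSS was 35.7%, with an observed to expected CpG ratio of 0.11. At the 7 TSSs between 83524535 and 83524891 it was 55.7 to 63.0%, with ratios of 0.62 to 1.19. The peak thus sat at a CpG-rich internal start and not at the upstream start. It was also the only one of the 11 peaks with a match to the MEF2 site, which 0.658% of all peaks had. That share was not matched for length, and the Mef2c peak was longer than 84.0% of all peaks.

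Myog and Des had no peak. Myog, the factor needed for the fusion and differentiation of myoblasts (chromosome 1, 134289989 to 134292548), had its nearest peak 54.3 kb upstream at Adora1, over a TSS of that gene. Of all genes, 70.0% had a closer one. Des (chromosome 1, 75360329 to 75368579) had its nearest peak 13.3 kb downstream. It was 750 bp long (75381900 to 75382649, row 8257) and covered an internal TSS of Speg, a kinase gene of striated muscle. The sequences of both promoters shown above held 2 E-boxes each. From 250 bases before to 50 after the main start, 69.0% of all protein-coding genes held one or more. In that window there were 0 to 2 E-boxes at the 5 genes with a peak and 0 to 2 at the 4 genes without.

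**Figure D2:**
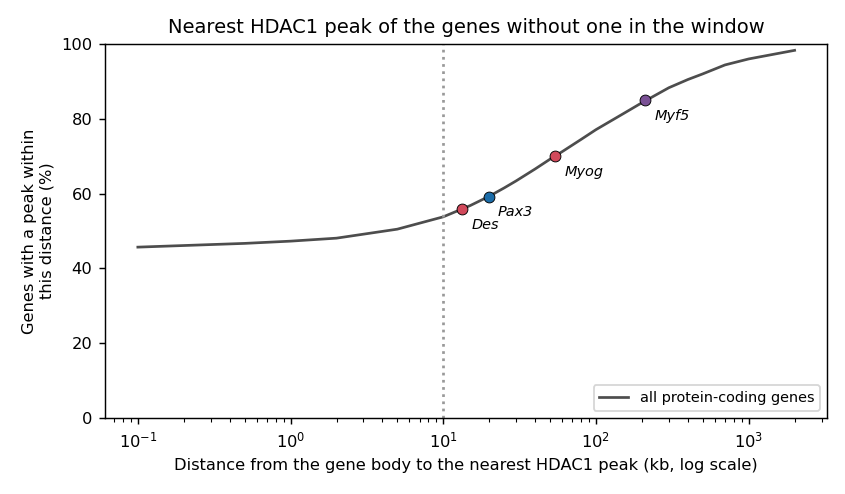
Distance in kb (log scale) from the gene body to the nearest HDAC1 peak for Des, Pax3, Myog and Myf5 (points), on the curve of the percentage of all protein-coding genes with a peak within that distance. The dotted line is the 10 kb flank; the 4 genes lie from 13.3 kb (Des) to past 200 kb (Myf5).

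Early precursor and differentiation genes were set side by side. The 4 early precursor genes had 7 peaks in 386 kb of windows, or 1.82 per 100 kb, and 0.856% of the windows was covered. The 3 differentiation genes had 1 peak in 234 kb, or 0.428 per 100 kb, with 0.449% covered. The order of the covered shares turned when only the first 7673 rows of the list were used, to 0.376% (2 peaks) at the early precursor genes and 0.449% (1 peak) at the differentiation genes. The windows of Myf5 and Myod1 had 3 peaks in 45.9 kb and 2.73% covered, all of it at Myod1. Over the joined windows of all protein-coding genes there were 1.07 peaks per 100 kb and 0.728% was covered. The groups rest on single genes, as Lbx1 gave 4 of the 7 early peaks and Mef2c the only differentiation peak, and with genes in place of replicates the difference was not tested.

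The 11 peaks were mostly short and late in the list. Their median length was 300 bp (200 to 1150 bp) beside 450 bp over all 15347 peaks, and 7 of the 11 were no longer than 300 bp. Their median row was 10017, with 7 of 11 (63.6%) after row 7673, the middle of the list. Of all peaks away from coding promoters 70.6% were in that later part, and of all peaks at coding promoters 41.8%. Of the 11 peaks, 6 lay at a promoter of their own gene (2 kb before to 1 kb after a coding TSS). Of all 15347 peaks, 10981 lay at a coding promoter. The 63.6% of the 11 peaks, a mixed set, lay between the 70.6% and the 41.8%. Without Met, the best row was 6501 and the median row 10458. By position, 5 of the 11 peaks overlapped coding sequence, 2 were wholly intronic, 1 was wholly outside the gene and 2 contained a coding TSS. None of the 11 lay at the promoter of another protein-coding gene. The shares of all peaks in these classes of position, and of those up to 300 bp, were not computed. These counts therefore describe the 11 peaks only.

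**Figure D3:**
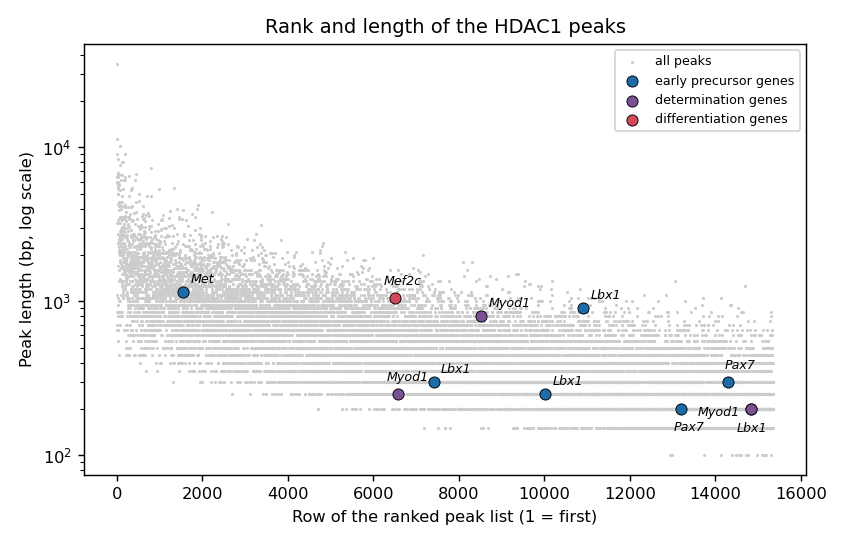
Length in bp (log scale) against the row in the ranked list for all 15347 HDAC1 peaks (grey) and the 11 peaks at the muscle genes (coloured by group). The Met peak is at row 1553, and the other 10 lie between rows 6501 and 14841; 1 Lbx1 and 1 Myod1 peak of 200 bp coincide at the right.

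At promoters, taken from 2 kb before to 1 kb after a coding TSS, peaks were found at the same 5 genes, beside 44.3% of all protein-coding genes. None of the 9 genes had peaks in the window but none at a promoter, as 9.49% of all genes did. Only Met and Mef2c had a peak within 250 bp before to 50 bp after a TSS. The share of all protein-coding genes with a peak that close was not computed, so this count has no background. Over all genes the promoter peaks went with CpG content. Where the start window was CpG-rich (GC of at least 50% and an observed to expected CpG ratio of at least 0.6), 76.9% of genes (7373 of 9582) had a promoter peak, and elsewhere 19.1% (2344 of 12271). Among the 9 genes the main start was CpG-rich at Pax3 and Pax7 only, and the other start of each was not. By any coding TSS, a class chosen after the values were seen, Met and Mef2c were CpG-rich as well. Their peaks each contained a CpG-rich TSS. In that class 75.3% of all genes had a promoter peak, and outside it 11.8%. Pax3, with a GC content of 64.3% and a ratio of 0.70, had no peak. Lbx1 and Myod1, with ratios of 0.56 and 0.43 at their starts, had peaks with ratios of 0.42 to 0.90 and 0.67 to 0.76. The best-ranked Lbx1 peak had the 0.42. The starts of Myf5, Myog and Des had ratios of 0.16, 0.34 and 0.39. Over the 11 peaks the median GC content was 62.5% and the median CpG ratio 0.72, near the 62.9% and 0.76 of all peaks.

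**Figure D4:**
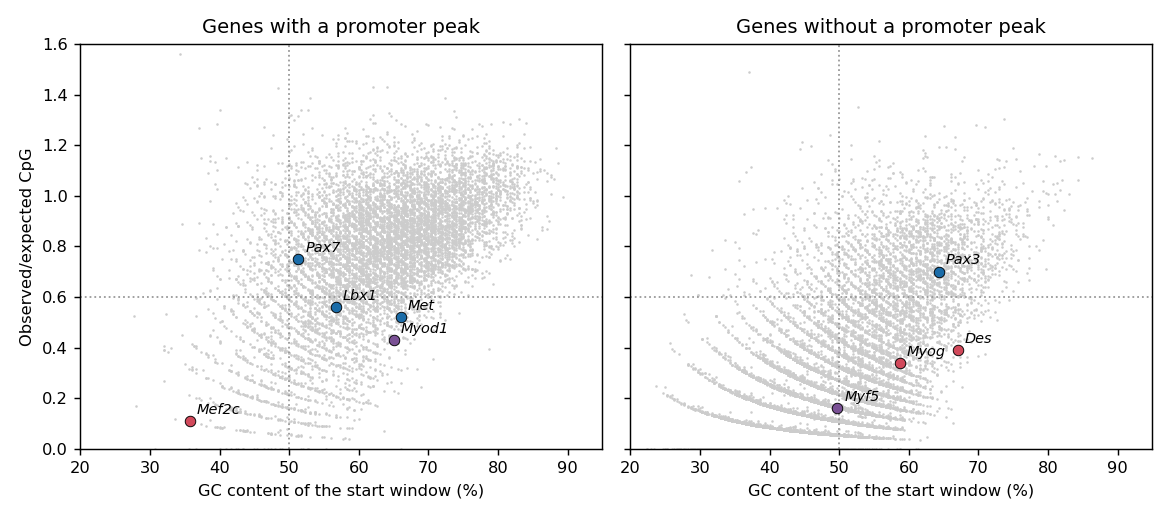
Observed to expected CpG ratio against GC content (%) of the 300 bases around the main start of each protein-coding gene, for genes with (left) and without (right) an HDAC1 peak at a promoter. Grey points are all genes and coloured points the 9 muscle genes; dotted lines are the limits of the CpG-rich class. Pax3 lies in the CpG-rich class without a peak, and Mef2c is plotted by its upstream start.

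E-boxes were found in 10 of the 11 peaks, and in 80.5% of all peaks. The density was highest at Myod1, with 0.75, 0.80 and 0.50 E-boxes per 100 bp in its 3 peaks, where the median over all peaks was 0.33. That median was 0.29 over peaks at coding promoters and 0.50 over peaks away from them. The Myod1 peak with 0.75 lay at its promoter, and those with 0.80 and 0.50 did not. At Lbx1 the density was 0.33 to 0.50, at Met 0.35 and at Mef2c 0.10. The Pax7 peak of 200 bp was the one without an E-box. A match to these letters is a description and not a binding site.

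Of 12 other early regulators, 11 had a peak, beside 53.8% of all genes, and Hgf, the ligand of Met, was the exception, with the nearest peak 617346 bp away. Among the well-ranked promoter peaks were those at Six4 (row 245, 2200 bp), which encodes a homeodomain factor acting upstream of the myogenic factors, and at Gab1 (row 2248, 2050 bp), which encodes an adaptor of the Met receptor.
Of 22 other differentiation genes, 7 had a peak. The best-ranked promoter peaks were at Mef2a (row 2269, 1800 bp), Mef2d (row 2276, 1500 bp) and Mylpf (row 3459, 750 bp). At 5 of the 7, named after their values were seen, every peak lay at the promoter of another gene: Mef2b (Rfxank and Borcs8), Myl4 (Cdc27), Mylpf (Tbc1d10b), Tnnc1 (Nisch) and Tnnt1 (Ppp1r12c). At Mef2b, Myl4, Mylpf and Tnnc1 the same peak also lay at the gene's own promoter, and at Tnnt1 it did not. The other 2 of the 7 were Mef2a and Mef2d, broadly used relatives of Mef2c. Every peak lay at the promoter of another gene, shared promoters included, at 15.0% of all protein-coding genes, or 27.9% of those with a peak. Peaks at the promoter of another gene, shared ones included, were then left out, a choice made after the values were seen. A peak remained at 2 of 22 differentiation genes, 11 of 12 early regulators and 5 of the 9 muscle genes. Of all protein-coding genes 38.8% kept one. The 15 genes without a peak were the contractile and structural genes Acta1, Actc1, Myh3, Myh7, Myh8, Myl1, Tnni1, Ttn and Dmd, the fusion genes Mymk and Mymx, and Myf6, Cdh15, Chrna1 and Ckm. The lists differed in CpG content. By the main start, 5 of the 12 early regulators and 4 of the 22 differentiation genes were CpG-rich. All of these had a promoter peak, beside 76.9% of all CpG-rich genes. Of the others, 5 of 7 early regulators and 2 of 18 differentiation genes had one, beside 19.1% of all such genes. Both lists were chosen with earlier results of these data known, and the share of one was not tested against that of the other.

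For comparison, all 8 marker genes of limb mesenchyme had peaks, 56 in total. The share of their windows covered ran from 5.43% (Prrx2) to 56.8% (Hand2), with promoter peaks at row 16 for Hand2, 120 for Prrx1 and 173 for Tbx5. Lbx1 and Myod1, with 7.13% and 5.52%, lay at the lower end of that range, and the other 7 muscle genes were below it. The windows of these lists were not matched for length. Markers of other small cell populations had peaks at 2 of 6 genes (ectoderm), 1 of 5 (endothelium), 2 of 5 (blood) and 2 of 5 (nerve and neural crest). At Fgf8, a gene of the ectodermal ridge, 3 peaks covered 3.83% of the window, 2 of them at the promoter of Npm3, and Isl1 and Kdr had promoter peaks at rows 4674 and 9184. How far the number of cells of a type in the bud moves with its peaks was not tested.

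**Figure D5:**
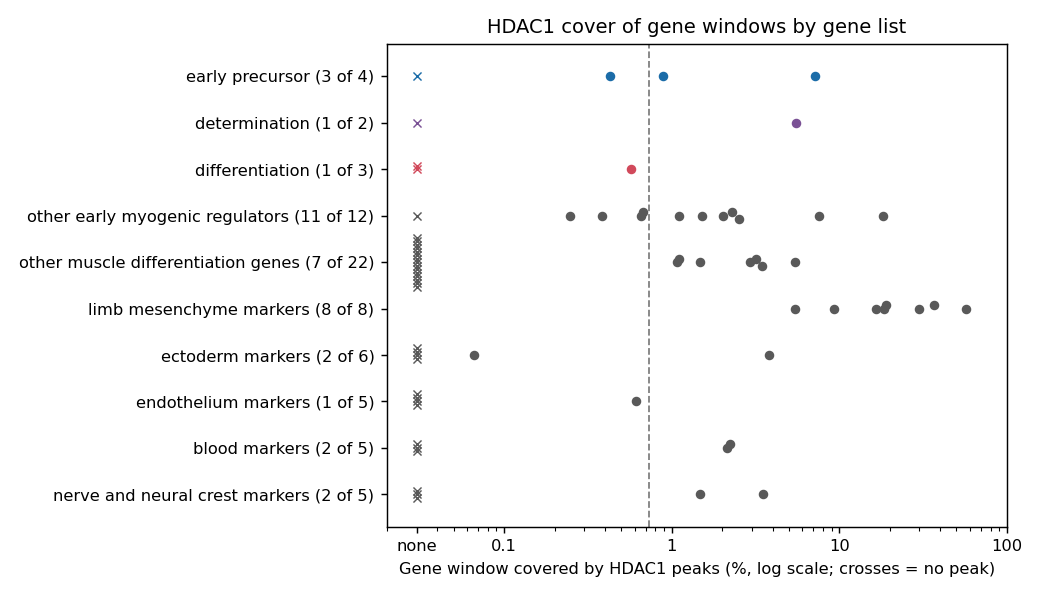
Share of each gene's window (body and 10 kb each side) covered by HDAC1 peaks, in % on a log scale, by gene list; each point is a gene, crosses are genes without a peak, and numbers in brackets are genes with a peak of all in the list. The dashed line is the 0.728% covered over all protein-coding genes; the limb mesenchyme markers lie above 5% throughout, and of the muscle genes Lbx1 and Myod1 do.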

How the data were processed

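HDAC1 ChIP and input libraries of limb buds were aligned with Bowtie2 2.2.5 to mm10, per the labels. From all samples the authors made 1 deposited list of 15347 peaks, called in CisGenome under a limit on the false discovery rate. The deposited columns are chromosome, start and end on a 50 bp grid, with the rank in the row order. Whether positions count from 0 or 1 is not stated, which could shift an edge by 1 bp, and they were read as 1-based with both ends included. Weak binding can fall under the threshold, so that absence from the list depends on the depth, which the list does not give.

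Peaks were intersected (at least 1 bp) with GENCODE M21 gene bodies widened by 10 kb. All 9 genes were found, and 21938 protein-coding genes on the 21 chromosomes with a peak served as background. The main start of a gene was the most upstream TSS of its best-ranked APPRIS transcripts, a choice made after values were seen. Sequences came from GRCm38.p6 and the RefSeq promoter table. Genes named outside the 9 were those with the 3 best-ranked promoter peaks of a list, the nearest peaks' genes and those whose promoter a peak overlapped. Some items under this rule are not reported here. The 9 genes and all lists were chosen with earlier results of these data known. Overlap calls matched a direct comparison of coordinates in 2000 of 2000 simulated windows. No statistical test was made, since the list gives no value per sample. Python 3.11.15, numpy 2.4.6, pandas 2.3.3, pysam 0.24.0 and matplotlib 3.10.9 were used.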

Additional observations from a re-analysis of the deposited data

How the results depend on the processing

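Under 7 alternatives the number of genes with a peak in the window stayed between 4 and 7 of 9. It was 7 with 25 or 50 kb on each side, where Pax3 and Des gained a peak, and 4 with the first 7673 rows of the list, where Pax7 lost both of its own. Over all protein-coding genes the share was 45.1% without a flank, 61.5% with 25 kb, 69.2% with 50 kb and 38.3% with the first 7673 rows. The early precursor genes kept 2 peaks in the first 7673 rows, with 0.376% of the windows covered. This was below the 0.449% (1 peak) of the differentiation genes in those rows, so that the order of the covered shares turned. With 50 kb on each side 0.524% was covered at the early genes and 0.38% at the differentiation genes. The differentiation genes had 2 peaks with 25 or 50 kb, and 4 peaks and 0.822% covered with Myf5 and Myod1 among them, close to the 0.856% of the early genes. Promoter peaks were found at 2 genes within 250 bp before to 50 bp after a TSS and at 3 in the first 7673 rows. For all genes the promoter share was 46.5% within 5 kb and 30.2% in those rows. It was not computed for 250 bp before to 50 bp after a TSS. Chosen after seeing the data, classing genes by any coding TSS gave 75.3% and 11.8% in place of 76.9% and 19.1%, and leaving out peaks at the promoter of another gene left 2 of the 7 other differentiation genes and 38.8% in place of 53.8% of all genes. Each alternative moves a count through its own window, threshold or grouping. No paired analysis was possible because the list pools all samples, and no replicate could be left out for the same reason.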
